A study of Mus musculus with 30 samples.

Results

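Bone morphogenetic proteins (BMPs) and activins are secreted dimers of the TGF-beta superfamily, and 7 genes of this system were followed across a mouse study of macrophages and vitamin A: the ligand genes Bmp2, Bmp4, Inhba and Inhbb, the antagonist genes Fst and Grem1, and the target gene Id1. Their rows were picked by Ensembl identifier out of the 50764 gene models counted in each library, and all 7 were found. The study sequenced polyA RNA of 18 macrophage libraries and 12 libraries of podoplanin-positive (PDPN+) stromal cells, which the labels place in the omentum, a fatty sheet that hangs from the stomach. These form 10 groups of 3 libraries each. Macrophages form 6 groups: ex vivo cells from lavage, cells kept in culture by themselves (called alone), and 4 treated cultures. These were treated with all-trans retinoic acid (ATRA) at 1 uM, cultured together with PDPN+ cells (co-culture), cultured with PDPN+ cells behind a membrane (transwell), or treated with BMS493 at 1 uM. BMS493 lowers the activity of retinoic acid receptors as an inverse agonist. PDPN+ cells form 4 groups, alone, co-culture, transwell and BMS493. Whether BMS493 was added to 1 or to both cell types together is not in the labels, so BMS493 groups were set against co-culture and against cells alone. No strain, age, sex or genetic change is named in the labels. Cells were sorted from culture on F4/80, a macrophage surface protein, or on podoplanin, so a group is a sorted population that can carry cells of its culture partner.

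BMPs bind pairs of type I and type II receptors, which phosphorylate Smad1, Smad5 and Smad9, and Id genes are among the best known direct targets of these Smads. Activins are dimers of inhibin beta chains, made by Inhba (beta A) and Inhbb (beta B), and they signal through Smad2 and Smad3. Follistatin, the product of Fst, binds activins with very high affinity and keeps them from their receptors, while gremlin 1, the product of Grem1, binds BMP2, BMP4 and BMP7. Retinoic acid is the active metabolite of vitamin A, made by retinaldehyde dehydrogenases that omental stromal cells are known to express, and it acts through nuclear receptors on DNA.

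Promoters are shown for the 3 members whose values in PDPN+ cells spanned the widest fold range, to set their letters and base composition beside the values that follow. RefSeq sequence on GRCm38.p6 was at hand for 4 of the 7 members (Inhba, Inhbb, Bmp4 and Grem1), as the 250 bases before the start of each gene. Of these, 3 are printed 5′ to 3′ on the strand of the gene, with matches to 7 searched motifs in capitals: Inhba at chr13:16011601-16011850 on the plus strand, Bmp4 at chr14:46390670-46390919 on the minus strand and Grem1 at chr2:113758649-113758898 on the minus strand.
Inhba promoter: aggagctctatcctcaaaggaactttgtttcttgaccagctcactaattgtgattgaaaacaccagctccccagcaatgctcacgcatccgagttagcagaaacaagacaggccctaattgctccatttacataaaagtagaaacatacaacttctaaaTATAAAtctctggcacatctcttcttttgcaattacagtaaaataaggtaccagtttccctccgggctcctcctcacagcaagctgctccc
Bmp4 promoter: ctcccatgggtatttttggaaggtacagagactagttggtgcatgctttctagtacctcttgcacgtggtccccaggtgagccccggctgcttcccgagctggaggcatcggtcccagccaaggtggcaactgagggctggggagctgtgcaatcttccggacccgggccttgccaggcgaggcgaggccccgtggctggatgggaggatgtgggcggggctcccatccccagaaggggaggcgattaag
Grem1 promoter: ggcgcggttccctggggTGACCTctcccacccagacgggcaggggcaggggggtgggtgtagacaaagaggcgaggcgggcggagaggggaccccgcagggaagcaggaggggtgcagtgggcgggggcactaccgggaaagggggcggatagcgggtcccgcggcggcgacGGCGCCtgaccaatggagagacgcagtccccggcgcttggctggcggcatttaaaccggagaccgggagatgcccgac
The motifs were searched on both strands of the same 250 bases in 32851 windows. TGACTCA, an AP-1 site, was in 4.46% of the windows and TGACGTCA, a cyclic AMP response element, in 1.55%. GGCGCC, a site of BMP Smads, was in 9.59%, and GTCTAGAC, a site of Smad3 and Smad4, in 0.167%. AGGTCA and GGTTCA, core elements bound by nuclear receptors, were in 14.0% and 8.85%, and TATAAA, the TATA box, in 12.4%. None of these motifs lies within another. Inhba had the lowest GC content of the 4 members (43.2%, against a median of 52.4% over all windows) and held TATAAA 91 bases before its start. Grem1 had 72% GC and held GGCGCC 78 bases before its start and TGACCT, the reverse complement of AGGTCA, 233 bases before it. Bmp4 (63.2% GC) and Inhbb (68% GC) held none of the 7 motifs in this window. A match describes these letters and shows no binding.

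On GRCm38 with the GENCODE annotation, the genes lie as follows. Bmp2 (ENSMUSG00000027358) is at chr2:133552159-133562885 on the plus strand, Grem1 (ENSMUSG00000074934) at chr2:113746164-113758646 on the minus strand and Id1 (ENSMUSG00000042745) at chr2:152736251-152737410 on the plus strand. Bmp4 (ENSMUSG00000021835) is at chr14:46383520-46390669 on the minus strand, Inhba (ENSMUSG00000041324) at chr13:16011851-16031621 on the plus strand, Fst (ENSMUSG00000021765) at chr13:114452290-114458951 on the minus strand and Inhbb (ENSMUSG00000037035) at chr1:119415465-119422248 on the minus strand. Genes on the opposite strand overlap Bmp4 (Gm15217 and Gm15222), Inhba (B230303A05Rik and Gm48444) and Fst (Gm47040). No source used here gives the strand setting of the counting, so reads of these pairs cannot be told apart.

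Libraries held 29350158 to 54099085 counts, from 2148 to 25000 sorted cells, and PDPN+ co-culture had the fewest, 3730 cells in replicate 2 and 2148 in replicate 3. A batch label splits the libraries into 3 batches, which are numbered here like the replicates: batch 1 holds replicate 1 of all 10 groups, and batches 2 and 3 hold replicates 2 and 3. Values are given in this order throughout. Adgre1, which encodes F4/80, lay at 1789 CPM or more in all macrophage libraries and at 67.1 CPM or less in all PDPN+ libraries, so the titles matched the sort. Source names of the batch 1 co-culture libraries name the opposite cell type, and the titles were followed. CPM are counts normalized to the scaled library total. The 16 fibroblast markers summed to 14643 to 56446 CPM in PDPN+ cells. In macrophages they summed to 2.0 to 16 CPM ex vivo, 16.8 to 145 alone, 65.2 to 189 with ATRA, 44.1 to 177 in transwell, 388 to 1768 in co-culture and 1069 to 1429 with BMS493. The 16 macrophage markers summed to 68789 to 243492 CPM in macrophages. In PDPN+ cells they summed to 89.1 to 150.2 CPM alone, 112 to 681 in transwell, 1778 to 2557 in co-culture and 1747 to 4062 with BMS493. The co-culture and BMS493 libraries of either cell type therefore held more marker RNA of the other cell type than those cultured alone. BMS493 macrophages also held more fibroblast marker RNA than ATRA and ex vivo macrophages. Where BMS493 groups are set against cells alone, ATRA or ex vivo cells, the drug and the presence of partner cells or their RNA cannot be told apart. Batch 3 held the highest Inhba and Fst values of the cultured macrophages and touches several results below.

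Cultured alone, the cell types divided the genes between them. PDPN+ cells were the higher source of Bmp4, Inhbb, Grem1 and Id1, and macrophages of Bmp2. In edgeR's quasi-likelihood test with Benjamini-Hochberg adjustment over all genes, 4 of the 7 members were higher and 1 was lower in PDPN+ cells, where 38.9% of all 20987 genes tested were called. Bmp2, a ligand of bone and vessel formation, lay at 17.1, 13.2 and 5.49 CPM in macrophages alone and at 1.46, 0.526 and 1.56 CPM in PDPN+ cells alone (log2 fold change -3.37, SE 0.93, adjusted p = 0.00571). Bmp4, a ligand that patterns mesoderm and is made by many stromal cells, lay at 105, 76.1 and 100.1 CPM in PDPN+ cells. In macrophages it lay at 0.0347, 0.0217 and 0.0732 CPM, from 1, 1 and 2 counts (log2 11.04, SE 1.85, adjusted p = 5.12e-05). Within batches it was 1367 to 3501 times higher in PDPN+ cells, but each of these folds rests on fewer than 3 macrophage counts. Neither gene's groups overlapped. Grem1 was higher in PDPN+ cells by 8.13 on the log2 scale (SE 1.80, adjusted p = 0.000925), at 14.4, 9.24 and 49.7 CPM. Inhbb had 725 counts in the PDPN+ libraries and 0 in the macrophage ones, and was at least 177-fold higher when the macrophage group is set to 3 counts (adjusted p = 0.000741). Id1 was higher by 4.26 (SE 0.80, adjusted p = 0.000183), at 122, 95.5 and 247 CPM against 2.88, 9.07 and 11.8 CPM. Over all cultures, in the plot of every library, Inhbb lay at 1.02 CPM or more in PDPN+ cells and at 0.397 CPM or less in macrophages. The other members overlapped between the cell types. The share of all genes without overlap is not given here or below, so no lack of overlap is read as unusual.

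**Figure D1:**
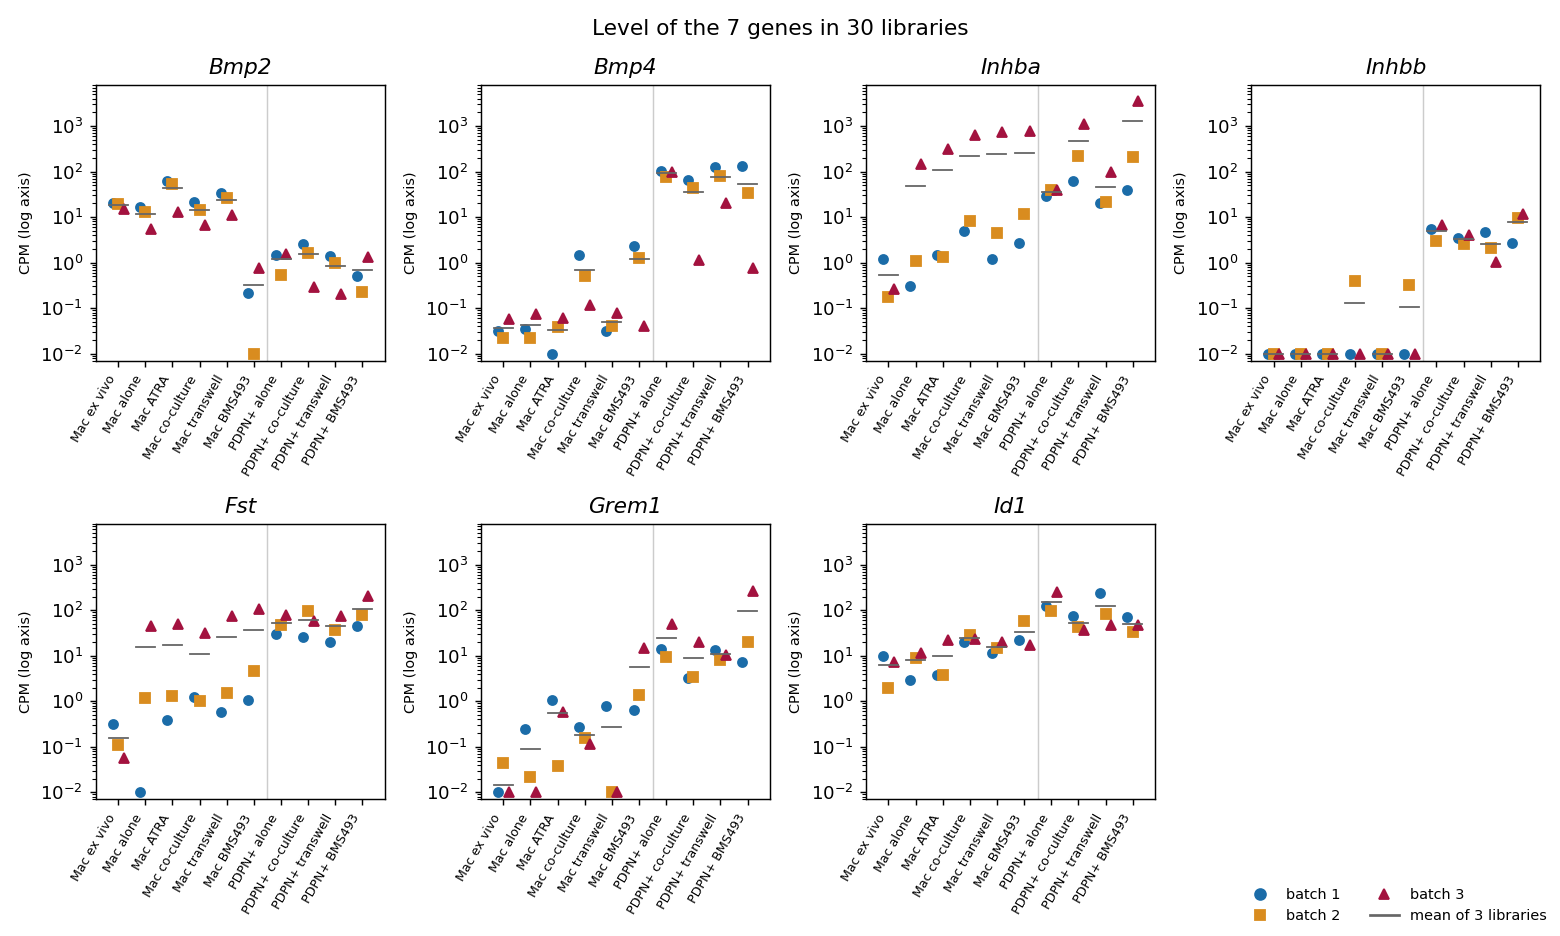
Level of each gene in every library (CPM, log axis) by group, with a point for each replicate and a line at the mean; libraries with 0 counts sit at the bottom of the axis. Bmp4 lies between 0.776 and 129.8 CPM in PDPN+ cells and at 2.32 CPM or less in macrophages, while Inhba spans 0.174 to 771 CPM in macrophages.

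Inhba and Fst were not called between the cell types. Inhba lay at 29.4, 39.4 and 39.2 CPM in PDPN+ cells alone and at 0.312, 1.09 and 146 CPM in macrophages alone, and the macrophage value of batch 3 lay above all 3 PDPN+ values (log2 -0.47, SE 2.28, adjusted p = 0.894). Fst lay at 30.7, 46.8 and 80.8 CPM in PDPN+ cells and at 0, 1.17 and 46.1 CPM in macrophages (log2 1.73, SE 1.85, adjusted p = 0.487). With batch as a block both were higher in PDPN+ cells, Inhba by 4.01 (adjusted p = 0.0408) and Fst by 4.28 (adjusted p = 0.0158). Without batch 3 the differences were 5.41 (adjusted p = 0.00177) and 5.79 (adjusted p = 0.00159).

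Per length, the order of levels in PDPN+ cells alone ran from Id1 at 137 ± 76.6 RPKM (SD, n = 3, here and below for RPKM) over Bmp4 at 46.2 ± 7.71, Fst at 19.0 ± 9.89, Grem1 at 6.11 ± 5.71 and Inhba at 5.75 ± 1.07 to Inhbb at 1.20 ± 0.462 and Bmp2 at 0.338 ± 0.166. Grem1 and Inhba did not differ beyond their spread. In macrophages alone the libraries of Id1 (6.95 ± 3.96 RPKM, 2.55 to 10.2) and Bmp2 (3.44 ± 1.72 RPKM, 1.55 to 4.94) overlapped.

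Bmp2 was the member that fell in macrophages with BMS493. It lay at 0.219, 0 and 0.760 CPM there, from 7, 0 and 19 counts, and the 0 allows up to 0.106 CPM (3 counts, for counting error only). In the other macrophage groups it lay at 20.0, 19.9 and 15.0 CPM ex vivo and at 17.1, 13.2 and 5.49 CPM alone. With ATRA it lay at 60.9, 53.8 and 12.6 CPM. It lay at 21.5, 14.5 and 6.79 CPM in co-culture and at 34.6, 26.2 and 11.3 CPM in transwell. All 3 BMS493 values lay below the other 15 macrophage values.

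Against co-culture, Bmp2 was lower by 98-fold in batch 1 and 8.92-fold in batch 3 (log2 -5.49, SE 0.96, adjusted p = 0.0130). It was the only member called by edgeR or by DESeq2 among the 6 tested, where 0.85% of the 17774 genes tested were called. Inhbb did not pass the filter on low counts in the macrophage fit and is given by its counts below. Against macrophages alone the fold was 77.9 and 7.22 in these batches (log2 -5.30, SE 0.95, adjusted p = 0.0175), and edgeR called no other member (0.737% of genes called), while DESeq2 also called Bmp4 (log2 4.83, adjusted p = 0.0133) and Grem1 (log2 6.01, adjusted p = 0.0148) there. Against ATRA it was 278 and 16.6 (log2 -7.11, SE 1.01, adjusted p = 0.0014), with 2 of 6 members (1 higher, 1 lower) and 4.01% of genes called. Against ex vivo cells it was 91.3 and 19.7 (log2 -5.89, SE 0.97, adjusted p = 0.000648), with 4 of 6 members (3 higher, 1 lower) and 21.3% of genes called. Batch 2 gives no fold, as its BMS493 library had 0 counts. The last 2 comparisons were added after the values had been seen. The call against co-culture was lost without macrophage BMS493 replicate 1 (adjusted p = 0.0941), and in the fit over only the groups compared (adjusted p = 0.120). The call against cells alone was lost without that library (0.0907, again an adjusted p), without replicate 1 or 2 of the cells alone (0.0639 and 0.0745) and in the fit over only the groups compared (0.144). Both other calls held in 12 of 12 settings. The labels do not tie replicates to separate animals or cultures, so these p-values measure only the spread between the samples at hand.

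With ATRA, Bmp2 was higher than in macrophages alone in 3 of 3 batches, by 3.57-, 4.08- and 2.30-fold, but it was not called (log2 1.81, SE 0.77, adjusted p = 0.582), and the groups overlapped through batch 3. No member was called with ATRA by edgeR or by DESeq2, 1 (Bmp2) had an unadjusted p under 0.05, and 0.326% of genes were called. In co-culture against alone Bmp2 was not called (log2 0.19, adjusted p = 0.946), nor in transwell (log2 0.97, adjusted p = 0.729), although the transwell value was higher in 3 of 3 batches. In PDPN+ cells Bmp2 lay between 0.204 and 2.62 CPM in all 12 libraries and was not called between any cultures. The BMS493 effect on Bmp2 against co-culture was 4.33 higher on the log2 scale in PDPN+ cells than in macrophages (SE 1.31, unadjusted p = 0.00301), and this difference was not called after adjustment (adjusted p = 0.624). Across this contrast 0 of 7 members were called by edgeR and by DESeq2, 1 had an unadjusted p under 0.05, and 0.00953% of genes were called.

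Smad3, which carries activin and TGF-beta signals to the nucleus, was also lower in macrophages with BMS493 than in co-culture, with ATRA or ex vivo. Its course differed from that of Bmp2 in cells alone. Smad3 was called lower there than ex vivo and Bmp2 was not (log2 -0.59, adjusted p = 0.656). It lay at 96.6, 96.0 and 107 CPM ex vivo and at 25.8, 8.24 and 4.06 CPM alone. With ATRA it lay at 63.2, 54.7 and 33.7 CPM, in co-culture at 71.1, 98.7 and 31.2 CPM, in transwell at 59.8, 47.2 and 16.1 CPM and with BMS493 at 8.51, 9.89 and 4.04 CPM. The BMS493 values lay below all co-culture, transwell, ATRA and ex vivo values and overlapped those of cells alone. Smad3 fell with BMS493 against co-culture (log2 -3.19, SE 0.67, adjusted p = 0.0342), ATRA (log2 -2.82, adjusted p = 0.0257) and ex vivo cells (log2 -3.81, adjusted p = 0.00125). The call against co-culture was lost without any of the 3 BMS493 libraries, without co-culture replicate 1 or 2 and in the fit over only the groups compared (adjusted p = 0.0701 to 0.144). That against ATRA was lost without any BMS493 library and without ATRA replicate 1 or 2 (adjusted p = 0.0710 to 0.0858), and that against ex vivo cells held in 12 of 12 settings. It was lower in macrophages alone than ex vivo (log2 -2.95, adjusted p = 0.00589). Its higher values in co-culture (log2 2.33, adjusted p = 0.117) and with ATRA (log2 1.96, adjusted p = 0.318) than alone were not called.

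**Figure D2:**
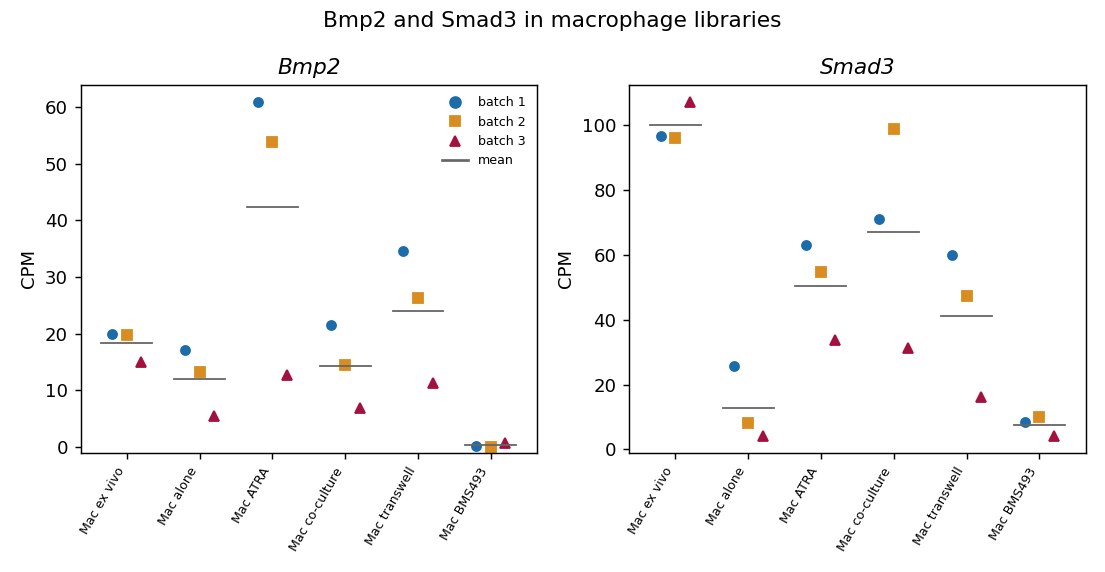
Bmp2 and Smad3 in the 18 macrophage libraries (CPM, linear axis) by group, with points for the 3 batches and a line at the mean. The BMS493 libraries have the lowest Bmp2 values, at 0 to 0.760 CPM. Their Smad3 values, at 4.04 to 9.89 CPM, overlap those of cells alone, at 4.06 to 25.8 CPM.

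Bmp4, in PDPN+ cells, differed widely between batches of the same culture. It lay at 105, 76.1 and 100.1 CPM alone and at 63.9, 44.0 and 1.14 CPM in co-culture. In transwell it lay at 129, 81.2 and 20.8 CPM, and with BMS493 at 129.8, 33.2 and 0.776 CPM. Co-culture values lay below those of cells alone without overlap, by 1.65-, 1.73- and 87.7-fold, but Bmp4 was not called there (log2 -1.37, SE 1.38, adjusted p = 0.702), nor with BMS493 against alone (log2 -0.78, adjusted p = 0.818) or in transwell (log2 -0.22, adjusted p = 1). The lowest value of each of these 3 groups was that of batch 3, whose cells alone held 100.1 CPM.

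Markers of mesothelial cells, the lining of the omentum, were set beside these values. The 8 markers summed to 2652, 2178 and 1617 CPM in PDPN+ cells alone and to 1095, 181 and 36.7 CPM in co-culture. They summed to 1619.5, 1398 and 169 CPM in transwell and to 1099.7, 277 and 12.8 CPM with BMS493. In all 4 groups the batch 3 library had the lowest sum, and the 2 PDPN+ libraries with the lowest sums were those with the lowest Bmp4. In batch 1 with BMS493 and in batches 1 and 2 of transwell, the sum was lower than alone in the same batch while Bmp4 was higher. In the other co-culture, transwell and BMS493 libraries both were lower than alone. In bulk RNA, fewer cells of a type and less RNA per cell cannot be told apart, and the part of mesothelial cells in the Bmp4 values was not tested. Over the 12 PDPN+ libraries the genes whose log2(CPM + 1) was most like that of Bmp4 were Vegfd (Pearson r = 0.984), Upk1b (0.980), which is also among the mesothelial markers, and Ppp2r2b (0.977). These libraries share their batches and depth, and r is given as a description.

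**Figure D3:**
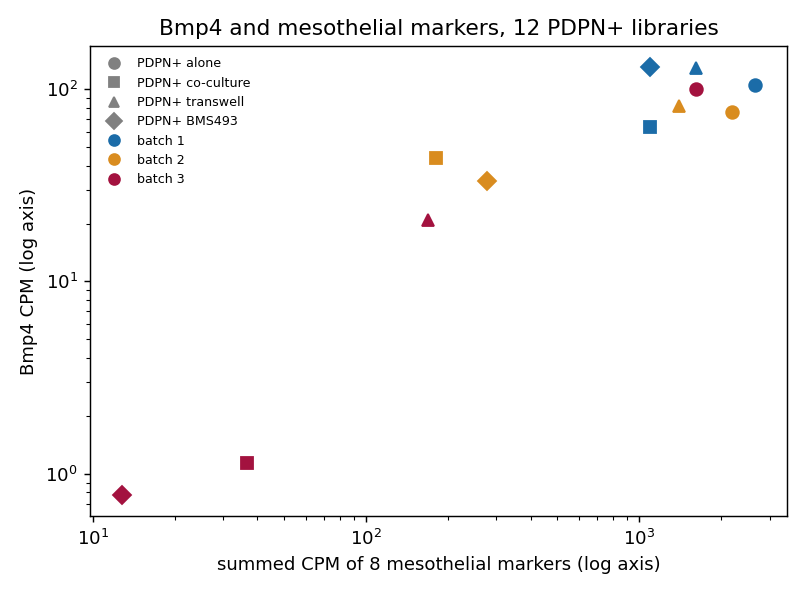
Bmp4 (CPM) against the summed level of 8 mesothelial markers (CPM) in the 12 PDPN+ libraries, both on log axes, by group and batch. The batch 3 co-culture and BMS493 libraries have the lowest values on both axes, 1.14 and 0.776 CPM of Bmp4 and marker sums of 36.7 and 12.8 CPM.

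In macrophages Bmp4 stayed near the counting limit except in batches 1 and 2 of co-culture and BMS493. It lay at 1.48, 0.516 and 0.117 CPM in co-culture and at 2.32, 1.27 and 0.0400 CPM with BMS493. The batch 3 values of these groups were 4 counts and 1 count, near that limit. The other 12 macrophage libraries held 0 to 0.0773 CPM. Bmp4 was called higher with BMS493 against ATRA, where the ATRA group held 3 counts and the ratio of pooled levels was 38.5 (exact 95% binomial interval 12.9 to 190, for counting error only; edgeR adjusted p = 0.0368). That call was lost without any of the 3 ATRA libraries (adjusted p = 0.0518 to 0.148), and without BMS493 replicate 1 (0.126) or 2 (0.0885). Nor was Bmp4 called against ATRA in the fit over only the groups compared. It was also called against ex vivo cells (log2 4.86, SE 1.21, adjusted p = 0.0105), and this was lost without ex vivo replicate 2 (adjusted p = 0.0526). In both comparisons Bmp4 was higher with BMS493 in 2 of 3 batches and lower in batch 3, at 0.0400 CPM against 0.0618 CPM with ATRA and 0.0570 CPM ex vivo, so the groups overlapped. In co-culture against alone its values did not overlap and were higher in 3 of 3 batches, but it was not called (log2 3.94, SE 1.20, adjusted p = 0.158). Batch 3 there held 4 counts against 2. In that comparison 0 of 6 members were called by edgeR and 0 by DESeq2, 2 had an unadjusted p under 0.05 (Bmp4 and Id1), and 0.698% of genes were called.

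These low macrophage values were set beside the fibroblast markers carried by the same libraries. In co-culture the macrophage level of Bmp4 was 2.31, 1.17 and 10.3% of the PDPN+ level of the same batch, and the median of the 16 fibroblast markers was 3.69, 1.49 and 1.05% in these libraries. With BMS493 Bmp4 stood at 1.78, 3.83 and 5.16% and the marker median at 2.99, 3.20 and 3.68%. The batch 3 percents of Bmp4 rest on 4 macrophage counts against 48 PDPN+ counts in co-culture and on 1 against 46 with BMS493. In transwell, with a membrane between the cells, Bmp4 stood at 0.0239, 0.0486 and 0.371% and the markers at 0.304, 0.133 and 0.0724%. These Bmp4 percents rest on 1, 1 and 2 macrophage counts. Single markers ranged from 0 to 7.98, 8.67 and 37.2% in co-culture and from 0 to 40.6, 9.20 and 14.8% in transwell. With BMS493 they ranged from 2.06 to 16.9, 2.36 to 13.9 and 0 to 87.4%. The part of stromal RNA in the macrophage values was not tested.

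Inhba spanned the widest range of CPM of the 7 genes in both cell types, and batch 3 held its highest values. In macrophages it lay at 1.19, 0.174 and 0.257 CPM ex vivo and at 0.312, 1.09 and 146 CPM alone. With ATRA it lay at 1.47, 1.31 and 319 CPM and in co-culture at 5.03, 8.26 and 635 CPM. In transwell it lay at 1.20, 4.54 and 739.6 CPM and with BMS493 at 2.66, 11.6 and 771 CPM. Each cultured group thus held 1 library of batch 3 that lay far above the other pair, and the ex vivo library of batch 3 did not.

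Fst, the activin antagonist, had the same split in macrophages. It lay at 0.313, 0.108 and 0.0570 CPM ex vivo, at 0, 1.17 and 46.1 CPM alone and at 0.392, 1.31 and 50.4 CPM with ATRA. In co-culture it lay at 1.23, 0.993 and 31.1 CPM, in transwell at 0.585, 1.54 and 74.5 CPM and with BMS493 at 1.06, 4.59 and 105 CPM. Over the 15 cultured macrophage libraries, the 10 of batches 1 and 2 held 0.312 to 11.6 CPM of Inhba (median 2.06) and 0 to 4.59 CPM of Fst (median 1.12). The 5 of batch 3 held 146 to 771 CPM of Inhba (median 635) and 31.1 to 105 CPM of Fst (median 50.4). A comparison of batch 3 with the other batches, with group as a term, was added after these values had been seen. It gave log2 7.46 for Inhba (SE 0.29, adjusted p = 7.1e-08) and 5.81 for Fst (SE 0.39, adjusted p = 2.01e-06). These were 2 of 6 members, and 28.2% of the 17218 genes tested were called. Batches 1 and 2 were not each set against the others in this way, so that share has no comparator. The summed level of 3 granulocyte markers was also highest in batch 3 within each cultured group, at 45.5 to 122 CPM against 4.16 to 33.8 CPM in the other cultured libraries, but 1 of the 3, S100a8, made up nearly all of it. S100a9 stayed under 1 CPM and Ly6g, the defining granulocyte marker, was at 0 in all 5 cultured groups. The batch label is not further described.

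**Figure D4:**
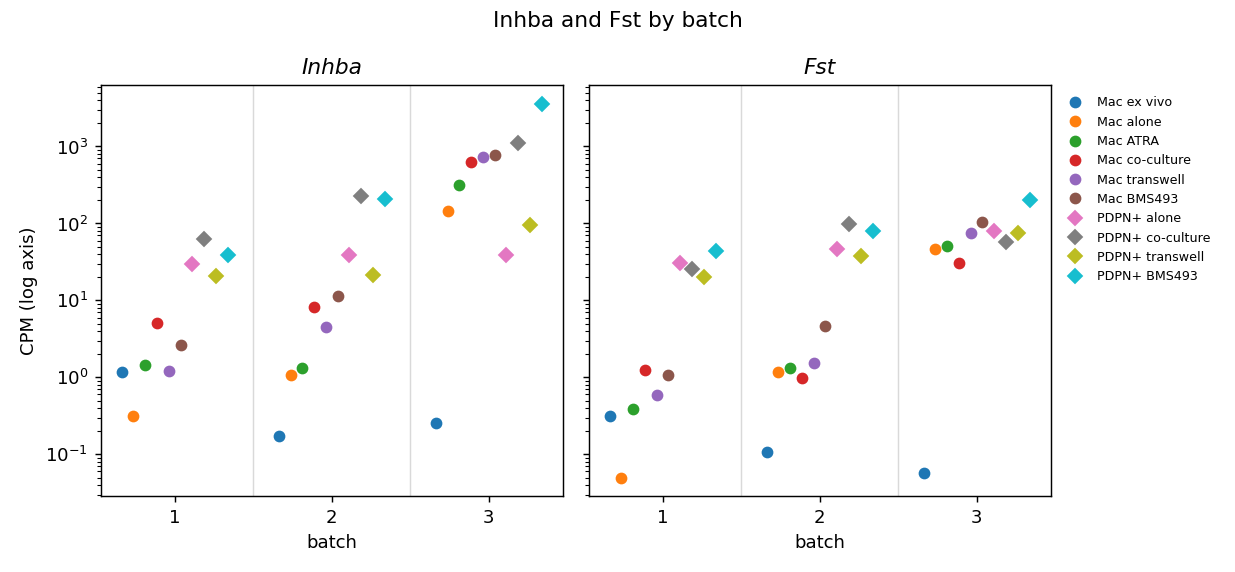
Inhba and Fst in all 30 libraries (CPM, log axis) by batch, with a point for each library coloured by group, circles for macrophages and diamonds for PDPN+ cells; libraries with 0 counts sit at the bottom of the axis. In the 5 cultured macrophage groups the points of batch 3 lie at 146 to 771 CPM for Inhba and 31.1 to 105 CPM for Fst, above the other batches.

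Neither gene was called in a comparison of macrophage groups. Between macrophages alone and ex vivo, Inhba differed by log2 6.50 (SE 3.39, adjusted p = 0.211) and Fst by 6.59 (SE 2.94, adjusted p = 0.140). In this comparison 0 of 6 members were called by edgeR and by DESeq2, 1 had an unadjusted p under 0.05 (Fst), and 17.8% of genes were called. BMS493 against ex vivo gave 8.90 for Inhba (SE 3.72, adjusted p = 0.102) and 7.80 for Fst (SE 3.06, adjusted p = 0.0833). With batch as a block these were 4.36 (adjusted p = 0.0393) and 5.48 (adjusted p = 0.0130), both called, and both genes were higher in 3 of 3 batches without overlap. Against macrophages alone, Inhba was higher within all 3 batches in each of the other cultures. The fold was 16.1, 7.60 and 4.34 in co-culture (log2 2.14, adjusted p = 0.791) and 3.84, 4.18 and 5.06 in transwell (log2 2.33, adjusted p = 0.824). It was 8.52, 10.7 and 5.27 with BMS493 (log2 2.40, adjusted p = 0.715) and 4.71, 1.21 and 2.18 with ATRA (log2 1.09, adjusted p = 0.990). None of these was called, also not with batch as a block, and the groups overlapped across batches. The main fit has no batch term, so the spread between batches enters its tests. In transwell against alone 0 of 6 members were called by edgeR and by DESeq2, 0 had an unadjusted p under 0.05, and 0.0281% of genes were called. Co-culture against transwell called 0 of 6 members by edgeR and by DESeq2, with 1 unadjusted p under 0.05 (Bmp4) and 0.0394% of genes called.

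In PDPN+ cells Inhba lay at 29.4, 39.4 and 39.2 CPM alone. In co-culture it lay at 63.6, 225 and 1117 CPM, above every value of cells alone, by 2.16-, 5.70- and 28.5-fold. With BMS493 it lay at 39.4, 207 and 3605 CPM, by 1.34-, 5.26- and 91.9-fold higher and without overlap. In transwell it lay at 20.6, 21.6 and 96.0 CPM and overlapped the cells alone. Inhba was higher in co-culture than in transwell in 3 of 3 batches, by 3.08-, 10.4- and 11.6-fold, although the groups overlapped through the batch 3 transwell library.

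None of these PDPN+ differences was called. Co-culture against alone gave log2 3.69 (SE 1.46, unadjusted p = 0.0279, adjusted p = 0.525), and BMS493 against alone gave 5.09 (SE 1.56, unadjusted p = 0.00743, adjusted p = 0.253), which DESeq2 called (5.13, adjusted p = 0.00127). Co-culture against transwell gave 3.31 (adjusted p = 0.805). Of the 7 members, edgeR and DESeq2 called 0 in co-culture against alone, where 2 had an unadjusted p under 0.05 (Inhba and Id1) and edgeR called 0% of the 19134 genes tested (1796 with an unadjusted p under 0.05 and 346 called by DESeq2). In transwell against alone both tools called 0 members, 0 had an unadjusted p under 0.05, and edgeR called 0% of genes (426 under 0.05 unadjusted, 16 by DESeq2). In co-culture against transwell both called 0 members, 1 was under 0.05 unadjusted, and 0.00523% of genes were called. In BMS493 against alone edgeR called 0 and DESeq2 1, 2 were under 0.05 unadjusted (Inhba and Id1), and 0.24% of genes were called. Macrophage RNA moved with these groups, as the marker sums above show, and its part was not tested. In batches 1 and 2 the macrophage level of Inhba was 3.68 to 7.91% of the PDPN+ level in co-culture and 5.59 to 6.75% with BMS493, and in batch 3 it was 56.8 and 21.4%.

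Fst in PDPN+ cells lay at 30.7, 46.8 and 80.8 CPM alone, 25.5, 97.4 and 57.5 CPM in co-culture, 20.4, 37.6 and 76.0 CPM in transwell and 44.1, 80.8 and 203 CPM with BMS493. These groups all overlapped, and the largest difference, BMS493 against alone, was higher in 3 of 3 batches but not called (log2 0.99, adjusted p = 0.578). In the PDPN+ cells the added comparison of batch 3 with the others called 0 of 7 members by edgeR, with 4 under 0.05 unadjusted, and 0.0679% of genes. DESeq2 was not run on that comparison. Its values were 2.95 for Inhba (adjusted p = 0.131), 1.15 for Fst (0.130, adjusted p) and 2.47 for Grem1 (0.133, adjusted p), and -2.82 for Bmp4 (0.342, adjusted p). Without the batch 3 library of cells alone, Inhba was called at 3.61 (adjusted p = 0.0150) and Bmp4 at -4.42 (adjusted p = 0.0304).

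Inhbb, the beta B chain of activin B, was a low-level gene of PDPN+ cells. It lay at 5.41, 3.0 and 6.58 CPM alone, 3.42, 2.62 and 3.95 CPM in co-culture, 4.71, 2.13 and 1.02 CPM in transwell and 2.67, 9.35 and 11.7 CPM with BMS493. The groups overlapped, and BMS493 against co-culture was not called (log2 1.22, SE 0.64, adjusted p = 1). In macrophages 16 of 18 libraries had 0 counts. The others were co-culture replicate 2, with 10 counts (0.397 CPM), and BMS493 replicate 2, with 9 counts (0.318 CPM), both of batch 2. These were 15.2% and 3.40% of the PDPN+ level of the same culture and batch.

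Grem1, the BMP antagonist, had its highest value in a PDPN+ library with BMS493. It lay at 14.4, 9.24 and 49.7 CPM in cells alone and at 3.22, 3.43 and 20.0 CPM in co-culture, lower by 4.47-, 2.69- and 2.49-fold within batches (log2 -1.51, SE 1.17, adjusted p = 0.618). In transwell it lay at 13.7, 8.07 and 10.5 CPM, and with BMS493 at 7.35, 20.1 and 259 CPM. BMS493 values were higher than co-culture values in 3 of 3 batches, by 2.29-, 5.86- and 13.0-fold (log2 3.38, SE 1.25, unadjusted p = 0.0202, adjusted p = 1), and the groups overlapped. In that comparison edgeR and DESeq2 called 0 of 7 members, 1 was under 0.05 unadjusted (Grem1), and 0.0157% of genes were called.

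In macrophages Grem1 lay between 0 and 1.08 CPM in the 15 libraries without BMS493 and at 0.657, 1.41 and 15.1 CPM with it. BMS493 values lay above those of co-culture, of cells alone and of ex vivo cells without overlap. Grem1 was called against ex vivo cells, which held 2 counts, with a ratio of pooled levels of 291 (exact 95% binomial interval 80.1 to 2412; edgeR adjusted p = 0.0125). The call was lost without BMS493 replicate 3 (adjusted p = 0.0630), without ex vivo replicate 1 or 3 (0.0527 and 0.0538) and without batch 3 (0.103). EdgeR did not call it against co-culture (log2 4.92, adjusted p = 0.311; 0.0759 by DESeq2) or cells alone (log2 5.94, adjusted p = 0.155), and DESeq2 called it against cells alone (adjusted p = 0.0148). The macrophage level with BMS493 was 8.94, 7.03 and 5.83% of the PDPN+ level of the same batch, and the fibroblast marker median of these libraries was 2.99, 3.20 and 3.68%. Single markers ranged from 2.06 to 16.9, 2.36 to 13.9 and 0 to 87.4%, and the part of stromal RNA in Grem1 was not tested.

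Ligand and antagonist were set against each other as the ratio of their deposited RPKM, which scale for gene length. In PDPN+ cells Inhba stood at 0.428, 0.376 and 0.217 times Fst in cells alone and at 0.453, 0.257 and 0.565 times in transwell. In co-culture it stood at 1.12, 1.03 and 8.69 times Fst, and with BMS493 at 0.40, 1.15 and 7.95 times. All 3 co-culture ratios lay above all 6 ratios of cells alone and transwell. Bmp4 stood at 14.7, 16.6 and 4.05 times Grem1 in cells alone and at 18.9, 20.2 and 3.98 times in transwell. In co-culture it stood at 39.9, 25.8 and 0.115 times Grem1, and with BMS493 at 35.5, 3.32 and 0.00602 times. In co-culture, batches 1 and 2 thus lay above the cells alone and batch 3 below. The ratios carry no test. Over the 12 PDPN+ libraries Inhba and Bmp4 ran against each other (Pearson r = -0.947 of log2(CPM + 1)), a value that includes the co-culture and BMS493 libraries of batch 3, the 2 with the highest Inhba and the lowest Bmp4.

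**Figure D5:**
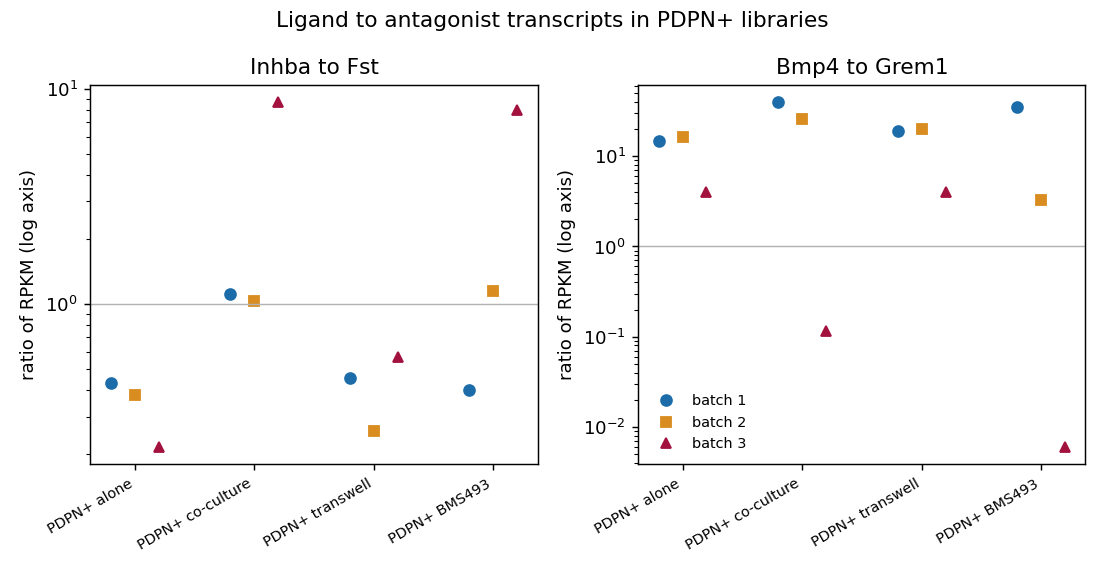
Ratio of Inhba to Fst and of Bmp4 to Grem1 (deposited RPKM, log axis) in the 12 PDPN+ libraries by group and batch. The ratio of Inhba to Fst reaches 8.69 and that of Bmp4 to Grem1 falls to 0.00602 in batch 3.

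Id1, an inhibitor of basic helix-loop-helix factors and a target of BMP signals, was higher in macrophages and lower in PDPN+ cells in co-culture than alone, and neither difference was called. In macrophages it lay at 10.1, 1.93 and 7.21 CPM ex vivo and at 2.88, 9.07 and 11.8 CPM alone. In co-culture it lay at 20.1, 28.8 and 23.3 CPM, above every value of cells alone, by 6.97-, 3.18- and 1.98-fold (log2 1.56, SE 0.72, unadjusted p = 0.0465, adjusted p = 0.380). In transwell it lay at 11.6, 14.5 and 20.3 CPM, with ATRA at 3.89, 3.79 and 22.2 CPM and with BMS493 at 22.2, 59.2 and 17.7 CPM. The BMS493 values also lay above all values of cells alone and ex vivo. Id1 was called against ex vivo cells (log2 2.29, SE 0.74, adjusted p = 0.0381) and not against cells alone (log2 1.98, SE 0.73, adjusted p = 0.237). The call was lost without BMS493 replicate 2 (adjusted p = 0.161), without ex vivo replicate 2 or 3 (0.128 and 0.0902) and in the fit over only the groups compared (0.0506).

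In PDPN+ cells Id1 lay at 122, 95.5 and 247 CPM alone and at 76.7, 43.3 and 36.0 CPM in co-culture, below every value of cells alone, by 1.59-, 2.21- and 6.85-fold (log2 -1.60, SE 0.63, unadjusted p = 0.0261, adjusted p = 0.525). With BMS493 it lay at 69.7, 33.5 and 46.9 CPM, by 1.75-, 2.85- and 5.27-fold lower and without overlap (log2 -1.67, SE 0.63, unadjusted p = 0.0216, adjusted p = 0.370). In transwell it lay at 245, 82.9 and 47.0 CPM and overlapped the cells alone. The co-culture effect was lower in PDPN+ cells than in macrophages by log2 -3.17 (SE 1.02, unadjusted p = 0.00483), which edgeR did not call (adjusted p = 0.167) and DESeq2 did (-3.21, adjusted p = 0.0348). In that contrast edgeR called 0 of 7 members and DESeq2 called 1, with 3 under 0.05 unadjusted (Id1, Bmp4 and Inhbb) and 0.986% of genes called. The same contrast for transwell called 0 members by either tool, with 0 under 0.05 unadjusted, and 0% of genes (931 under 0.05 unadjusted, 33 by DESeq2). Macrophage libraries in co-culture carried fibroblast marker RNA, whose part in the Id1 values was not tested. Id1 there reached 26.1, 66.7 and 64.7% of the PDPN+ level, against 3.69, 1.49 and 1.05% for the median fibroblast marker. Single markers ranged from 0 to 7.98, 8.67 and 37.2%. The PDPN+ level of Id1, the divisor here, was itself lower in co-culture than alone. Id3, another BMP target, lay at 989, 808 and 1766 CPM in PDPN+ cells alone, at 700.1, 365 and 266 CPM in co-culture and at 445, 179.9 and 388 CPM with BMS493, and was not called. In macrophages Id3 lay at 39.5, 117 and 18.2 CPM alone and at 40.5, 36.1 and 8.69 CPM in co-culture, lower in 2 of 3 batches (log2 -1.10, adjusted p = 0.563), where Id1 was higher in all 3. Id3 in transwell was at 15.9, 12.8 and 3.94 CPM, below every value of cells alone (log2 -2.47, unadjusted p = 0.00560, adjusted p = 0.312).

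Beyond the 7 genes, a list of 73 genes of the BMP and activin system was read in 8 roles. Between macrophages alone and ex vivo, 9 of the 43 list genes tested were higher and 2 were lower, where 17.8% of all genes were called, and the list median was 0.98 on the log2 scale against 0.08 over all genes. The higher genes with the largest changes were the type I receptor gene Acvrl1 (log2 3.61, SE 0.45, adjusted p = 8.13e-05), the BMP target Id3 (3.45, adjusted p = 0.00742), the inhibitory Smad gene Smad6 (3.35, adjusted p = 0.0369) and Bambi, a decoy receptor (3.07, adjusted p = 0.000109). The lower ones were Smad3, given above, and Hes1 (log2 -2.65, adjusted p = 0.0122). The Smad6 call was lost without replicate 2 or 3 of the cells alone, without ex vivo replicate 1 or 2 and in the fit over only the groups compared (adjusted p = 0.0622 to 0.163). The Hes1 call was lost without batch 3 or either of its libraries (adjusted p = 0.0502 to 0.0794). In co-culture against alone 1 of 43 rose, the extracellular protein gene Fstl1, at 53.2, 24.2 and 17.2 CPM against 2.60, 1.04 and 1.10 CPM (log2 4.27, SE 0.80, adjusted p = 0.0237), with 0.698% of all genes called. This call was lost without replicate 1 or 2 of either group and in the fit over only the groups compared (adjusted p = 0.0520 to 0.146). Fstl1 lay at 1.11, 0.710 and 1.31 CPM in transwell and at 40.5, 48.5 and 71.0 CPM with BMS493, and its group means in PDPN+ cells were 621 to 1382 CPM, so its macrophage values moved with the fibroblast marker sums, whose part was not tested.

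With BMS493, the list in macrophages held 2 lower genes against co-culture (Bmp2 and Smad3), with 0.85% of all genes called. Against cells alone it held 1 higher (Fstl1, log2 5.0, adjusted p = 0.0119) and 1 lower (Bmp2), with 0.737% of genes called. Against ATRA 4 were higher (among them Bmp4, Fstl1 at log2 4.48 with adjusted p = 0.00563, and Acvrl1 at 1.88 with adjusted p = 0.0181) and the same 2 as against co-culture were lower, with 4.01% of genes called. The Acvrl1 call was lost without replicate 1 or 2 of either group (adjusted p = 0.0608 to 0.106), and the Fstl1 call against cells alone without replicate 2 of the cells alone (adjusted p = 0.0896). Against ex vivo cells 16 of 43 were higher and 2 lower, with 21.3% of genes called. The BMP-binding protein gene Bmper had 680 counts with BMS493 and 0 ex vivo and was at least 301-fold higher, and Grem1 and Fstl1 (log2 7.98) were also among the largest changes. Of the 8 secreted antagonists tested, 5 were among these 16. Bmper, Fstl1 and Grem1 were each called higher in PDPN+ cells when the cell types alone were compared. So were 11 of 12 secreted antagonists and 35 of 58 list genes. Fibroblast marker sums of the macrophages are given above, and the part of stromal RNA in these values was not tested.

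No list gene was called by edgeR in macrophages with ATRA (6 under 0.05 unadjusted, 0 by DESeq2), in transwell against alone (7 and 1) or in co-culture against transwell (8 and 3). With batch as a block, edgeR called 1 list gene with ATRA against alone. In PDPN+ cells none of the 57 list genes tested was called in any comparison: co-culture against alone (13 under 0.05 unadjusted, 1 by DESeq2), transwell against alone (2 and 0), co-culture against transwell (5 and 0), BMS493 against co-culture (1 and 0) and BMS493 against alone (13 and 4). The 3 contrasts between cell types called none of 58 (13, 5 and 3 under 0.05 unadjusted, and 5, 0 and 0 by DESeq2). Between PDPN+ cells and macrophages alone 35 of 58 were higher and 3 lower, where 38.9% of all genes were called, with a list median of 3.13 against 0.08 over all genes. Of the 12 secreted antagonists tested 11 were higher. The BMP ligand gene Gdf6 (4534 counts against 0, at least 1109-fold), Id4 (2507 against 0, at least 613-fold), Bmp4 and Atoh8, a BMP target with 7810 counts against 3 (ratio 1910, interval 653 to 9264), had the largest changes. Bmp2, Eng, an endoglin co-receptor gene (log2 -1.97, adjusted p = 0.0191), and Bmp7 (log2 -1.91, adjusted p = 0.0079) were lower. The Eng call was lost without macrophage replicate 3 or PDPN+ replicate 1 or 3 (adjusted p = 0.0527 to 0.0828), and the Bmp7 call without macrophage replicate 2 (adjusted p = 0.0632). In the added comparison of batch 3 with the other batches of cultured macrophages, 10 of 42 were higher, led by Inhba, Fst, Smurf1 (log2 2.14) and Id2 (1.88), and 4 were lower, Gdf3 (log2 -4.35), Id3 (-1.79), Smad3 (-1.45) and Bmpr2 (-0.60), where 28.2% of all genes were called.

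For the other members, the genes most alike in log2(CPM + 1) were named in the cell type where the member was higher, and each Pearson r is a description over libraries that share batch and depth. Over 18 macrophage libraries the nearest to Bmp2 were Arsg (0.95), Neurl3 (0.935) and Pitpnc1 (0.932). Arsg, a lysosomal sulfatase gene, averaged 28.4 CPM with BMS493, 86.0 CPM alone and 140 CPM with ATRA. Over 12 PDPN+ libraries the nearest to Inhba were Hbegf (0.980), Plaur (0.976) and Mmp9 (0.973), a growth factor of the EGF family, the urokinase receptor and a gelatinase. Mmp9 averaged 0.314 CPM in PDPN+ cells alone and 109 CPM in co-culture, and 481 to 1767 CPM in the cultured macrophage groups. Plaur averaged 50.8 and 89.3 CPM in these PDPN+ groups and 230 to 577 CPM in the cultured macrophages. Macrophage marker RNA was higher in the same PDPN+ cultures, and its part in this likeness was not tested. The nearest to Fst were Siah1a (0.988), Jund (0.955) and Cdyl (0.931), and to Grem1 Nqo1 (0.949), Capzb (0.929) and Ass1 (0.921). For Inhbb they were Cd9 (0.817), Aldh1a3 (0.796), a retinaldehyde dehydrogenase gene, and Ass1 (0.777). For Id1 they were Tax1bp3 (0.993), Akr1b10 (0.990) and Capns1 (0.984).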

How the data were processed

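Per the file headers, the authors deposited a raw count of uniquely aligned reads for each gene and an RPKM, a value scaled for gene length and depth, adjusted by size factors. The submitters' processing notes name GSNAP and GRCm38. No source used here gives versions, annotation, strand setting or read filters. Gene names came from GENCODE, and 192 identifiers without a symbol hold 0.0358% of the counts.

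Counts were tested with edgeR 4.0.16 (R 4.3.3, limma 3.58.1): TMM scaling, the default low count filter by group, the quasi-likelihood test and Benjamini-Hochberg adjustment over all genes tested, with calls at an adjusted p under 0.05. The fits held 18 macrophage, 12 PDPN+ or all 30 libraries, with group as the only factor and a common biological coefficient of variation of 0.499, 0.573 and 0.551. Unless another tool is named, every p is from this test. In all, 16 comparisons were planned and 4 added after values were seen. CPM are counts over TMM-scaled totals of all 30 libraries. RPKM served for levels per length and ratios only. DESeq2 1.42.0, pandas 2.3.3 and matplotlib 3.10.9 were also used. The fitting scripts were tested on simulated data. Depth of 29350158 to 54099085 counts makes 3 counts, the floor used for a 0, equal to 0.0506 to 0.120 CPM, and floors and intervals cover counting error only.

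The labels give a batch shared by same-numbered replicates, which therefore pair the libraries. Deviations from group means correlated between same-numbered libraries with a median r of 0.166 in macrophages (-0.081 to 0.594, 28 of 45 pairs over 0.1) and 0.0996 in PDPN+ cells (-0.259 to 0.515, 9 of 18 pairs), across genes.

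The 7 members, the marker lists and the 73 pathway genes were chosen with earlier results of these data known. Named beside the members are up to 4 called pathway genes in each direction whose higher group averaged 1 CPM or more, and the 3 genes with the highest Pearson r of log2(CPM + 1), among genes that averaged 10 CPM or more in a group. Some results of this rule are not reported here. Smad3, Fstl1 and Id3 were given per library after their values had been seen. Alternatives were other scaling, no filter, DESeq2, the batch as a block, only the groups compared, no batch 340 and each library left out in turn.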

Additional observations from a re-analysis of the deposited data

How the results depend on the processing

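Of 1534 fold changes recomputed for 127 pairs of a member and a comparison, 1381 kept their direction and side of the threshold, 113 changed sign (0 of them of a called value), 20 lost and 20 gained a call. Levels stayed within the SD in 65 of 70 cases under plain library totals, and 49 of 49 ratios kept their sign with the deposited RPKM. The count of members called moved as follows. Macrophages in co-culture against alone had 1 without batch 3 (Bmp4, log2 4.94, adjusted p = 0.0229). BMS493 against co-culture had 0 with only the groups compared. BMS493 against alone had 3 with DESeq2 (Bmp2, Bmp4 and Grem1), 2 without batch 3 and 0 with only the groups compared, and BMS493 against ATRA had 1 there and 3 without batch 3 (adding Id1, log2 3.30, adjusted p = 0.0249). PDPN+ BMS493 against alone had 1 with DESeq2 (Inhba), and the co-culture contrast between cell types had 1 with DESeq2 (Id1) and 1 without batch 3 (Bmp4, log2 -5.88, adjusted p = 0.0233). Leaving out each replicate gave 0 to 1 for BMS493 against co-culture, 0 to 2 against alone, 1 to 2 against ATRA and 2 to 4 against ex vivo, 2 to 4 for batch 3 in macrophages and 0 to 2 for batch 3 in PDPN+ cells. The PDPN+ difference of Inhba from macrophages alone was 4.01 with the replicate block and 5.41 without batch 3, and -1.06 to 5.60 with a replicate left out.

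The replicate block called 6 members for BMS493 against ex vivo and 7 for PDPN+ cells against macrophages alone, by adding Inhba and Fst, and changed no other member call. Counts over all genes moved by over 1.5 times between settings: ex vivo against alone 3164 (1952 to 4297), ATRA 58 (3 to 328), co-culture 124 (1 to 930), transwell 5 (0 to 323), BMS493 against co-culture 151 (43 to 442), alone 131 (12 to 1279) and ATRA 712 (274 to 2231), and macrophages in co-culture against transwell 7 (0 to 150). In PDPN+ cells they were 0 (up to 346) for co-culture and 0 (up to 16) for transwell against alone, 1 (0 to 137) for co-culture against transwell, 3 (0 to 112) and 46 (0 to 697) for BMS493 against co-culture and alone, and 13 (0 to 911) for batch 3. Between the cell types alone they were 8159 (5319 to 8877), and in the contrasts between cell types 207 (121 to 688) for co-culture, 0 (up to 33) for transwell and 2 (1 to 56) for BMS493. Of the pathway list, 0 (up to 1) was called with ATRA against alone and 1 (0 to 7) in co-culture against alone. For BMS493 the counts were 2 (0 to 2), 2 (0 to 9), 6 (2 to 9) and 18 (11 to 28) against co-culture, alone, ATRA and ex vivo. The causes were not tested. Genes near the floor of 3 counts (Bmp4, Inhbb and Grem1 in macrophages) are limited by depth.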
